A study of Homo sapiens with 4 samples.

Results

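UM-UC-3 is an established human bladder cancer cell line. Total RNA was sequenced from cells transfected with a pair of siRNAs against the long noncoding RNA lncRNA-LBCS and from cells transfected with a negative control siRNA, and each gene was compared between those 2 libraries. The labels give 75 nM siRNA for each transfection, and the methods of the study give 48 h for the control cells. The time of the lncRNA-LBCS transfection is not stated separately. The series holds 4 libraries in all, with 1 library each for si-hnRNPK and si-PTBP1 beside the 2 compared here. There was 1 library per condition, so no difference below has a replicate check and no p-value is given.

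The members were the genes at 1 CPM or more in either of the 2 libraries. CPM is the reads of a gene scaled to a common library total, without regard to its length, so levels are compared between libraries and not between genes. This gave 13492 genes of the 27629 listed in any of the 4 tables. The change of a gene is the difference in log2(CPM + 1), the si-lncRNA-LBCS-labelled library minus the control library, and this scale understates the change of low genes. The control library held 61371954 reads on listed genes and the si-lncRNA-LBCS-labelled library held 70232674. At these depths 3 reads are worth 0.0489 and 0.0427 CPM. The 95% intervals are exact (Clopper-Pearson, on the split of a gene's reads over both libraries) and cover counting error only, not the spread between cultures. A read is not always an independent molecule, since no molecular identifiers are given.

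An siRNA is a short duplex whose guide strand directs the RNA-induced silencing complex to transcripts that pair with it along its whole length, which are then cut. The same guide can also lower other messages through its seed, the bases at its 5′ end that also direct microRNAs. lncRNA-LBCS takes its name from low expression in bladder cancer stem cells. Its gene lies on the strand opposite to ID4, which encodes an inhibitor of basic helix-loop-helix transcription factors.

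The siRNA strands are shown because the check of the target and the seed matches below rest on them. In each sense strand, printed 5′ to 3′ with its tt overhang, capitals show the 7 bases facing positions 2 to 8 of the guide. In each guide strand they show that seed.
lncRNA-LBCS siRNA-1 sense: gcugcucauuuGUCUGAUctt
lncRNA-LBCS siRNA-1 guide: gAUCAGACaaaugagcagc
lncRNA-LBCS siRNA-2 sense: ggugguagucaACACAAAutt
lncRNA-LBCS siRNA-2 guide: aUUUGUGUugacuaccacc
control siRNA sense: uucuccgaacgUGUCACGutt
control siRNA guide: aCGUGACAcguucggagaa

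Both lncRNA-LBCS siRNAs matched 1 annotated gene without a mismatch, ENSG00000228412, whose symbol is LNC-LBCS. In GENCODE release 29 on GRCh38 it is an antisense gene on chromosome 6, from 19324988 to 19839080 on the minus strand. The siRNA-1 site, at chr6:19803794-19803812, lay in exon 2 or 3 of 5 annotated transcripts. The siRNA-2 site, at chr6:19803293-19803311, lay in exon 3 of 1 transcript of 1930 bases, which also holds the siRNA-1 site. The sites are printed on the strand of the transcript, with the 19 paired bases in capitals.
siRNA-1 site: ttgaaGCTGCTCATTTGTCTGATCtatgag
siRNA-2 site: ctgctGGTGGTAGTCAACACAAATaaaaat
With up to 2 mismatches, the siRNA-1 guide could also pair with transcripts of 3 other tested genes, ZBTB11, FRYL and EPG5. Their changes were -0.37, -0.21 and -0.48, all under the threshold of 1 used below.

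The targeted gene did not separate from its control level in these reads. LNC-LBCS had 110 control reads and 103 reads in the si-lncRNA-LBCS-labelled library, or 1.79 and 1.47 CPM. With si-hnRNPK it stood at 3.43 CPM and with si-PTBP1 at 3.82 CPM. Its change was -0.18 (-0.42 to 0.07), and the level was 81.8% of control with an interval from 61.9 to 108%. The labels give a qPCR value of 0.13 for this target relative to a control of 1. A level that low lies outside the counting interval of the reads, so the reads of the whole gene do not show it. The CPM is for the whole gene, and its transcripts with and without the siRNA sites cannot be told apart in it. The library is therefore called by its label throughout. In bulk RNA, fewer cells holding a transcript and less of it per cell cannot be told apart. HNRNPK and PTBP1, the targets of the other siRNAs, were 0.04 and 0.22 above control in it, and GAPDH, which encodes a glycolytic enzyme, was 0.12 below control (-0.12).

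**Figure D1:**
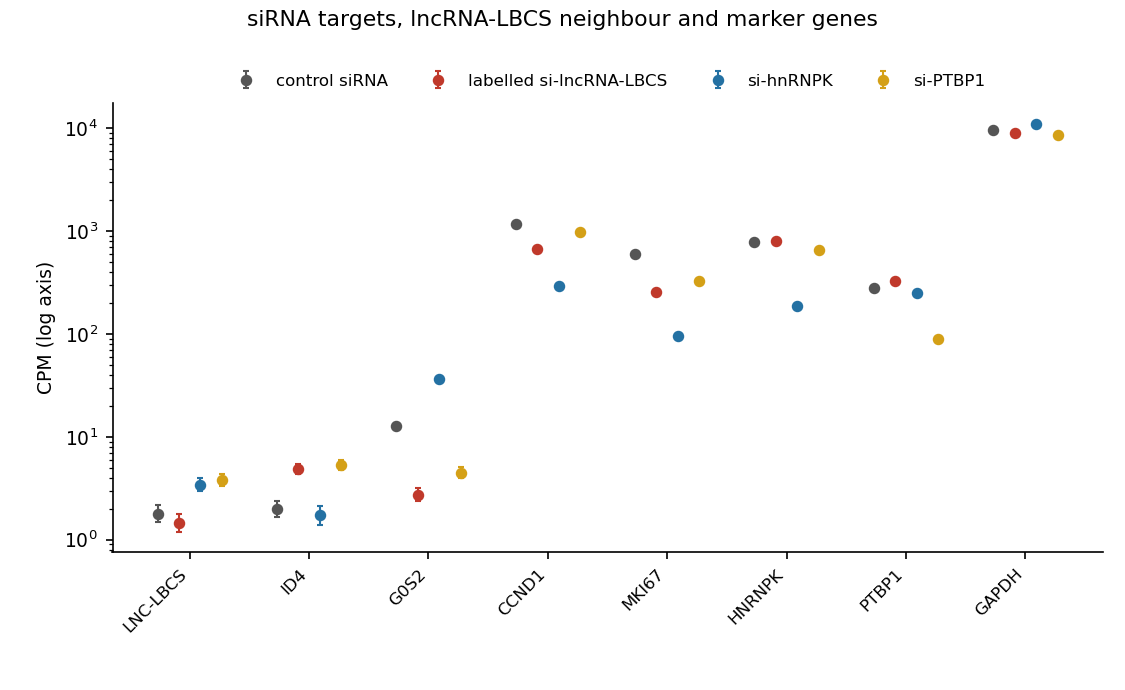
CPM (log axis) of the siRNA target genes, the neighbour ID4, the markers G0S2, CCND1 and MKI67, and GAPDH in the 4 libraries, with 1 point per library and 95% exact Poisson counting intervals, which are often smaller than the point. LNC-LBCS lies at 1.79 CPM with control siRNA and at 1.47 CPM in the si-lncRNA-LBCS-labelled library, while HNRNPK and PTBP1 are lowest in the libraries of their own siRNAs.

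Next to the target, ID4 stood higher. ID4 starts 1694 bases from the start of LNC-LBCS on the opposite strand, and part of it overlaps an LNC-LBCS transcript. It had 122 control reads and 343 in the si-lncRNA-LBCS-labelled library, or 1.99 and 4.88 CPM, and 1.73 CPM in si-hnRNPK and 5.30 CPM in si-PTBP1. The libraries fell into a low pair and a high pair, with si-PTBP1 beside the si-lncRNA-LBCS-labelled library. The change was 0.98 (0.76 to 1.19), just under the threshold of 1, and 1.26 with a pseudocount of 0.1. Whether the counting used strand is not given in the sources used here, and without strand the reads of ID4 and of LNC-LBCS cannot be told apart where they overlap. Of the other genes starting within 1 Mb, MBOAT1, a membrane-bound acyltransferase, was at 10.0 and 5.94 CPM, a change of -0.67 (-0.83 to -0.51). E2F3, an activator of S phase genes, changed by -0.03 and CDKAL1, a tRNA-modifying enzyme, by 0.10. In all 9 genes starting in that range were listed, of which 5 were tested and 0 passed the threshold.

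Most genes lay close to their control level. Of 13492 tested genes, 85.2% differed by less than 0.5, the median change was -0.01, and the middle 90% of genes lay between -0.61 and 0.55. A change of 1 or more, which is 2-fold for well expressed genes, was reached by 51 genes in the higher direction, 0.378% of those tested, and by 136 in the lower direction, 1.01%, together 187 or 1.39%. Of the called genes 176 had a symbol. The fewest reads of a called gene, in whichever library was higher, were 85. The counting interval excluded 0 for 72.2% of all tested genes, so counting alone does not set the called genes apart. VAT1 at 1.01 and MED27 at -1.002 lay just inside the threshold, and CSMD3 at 0.997 and SPEN at -0.999 just outside it.

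**Figure D2:**
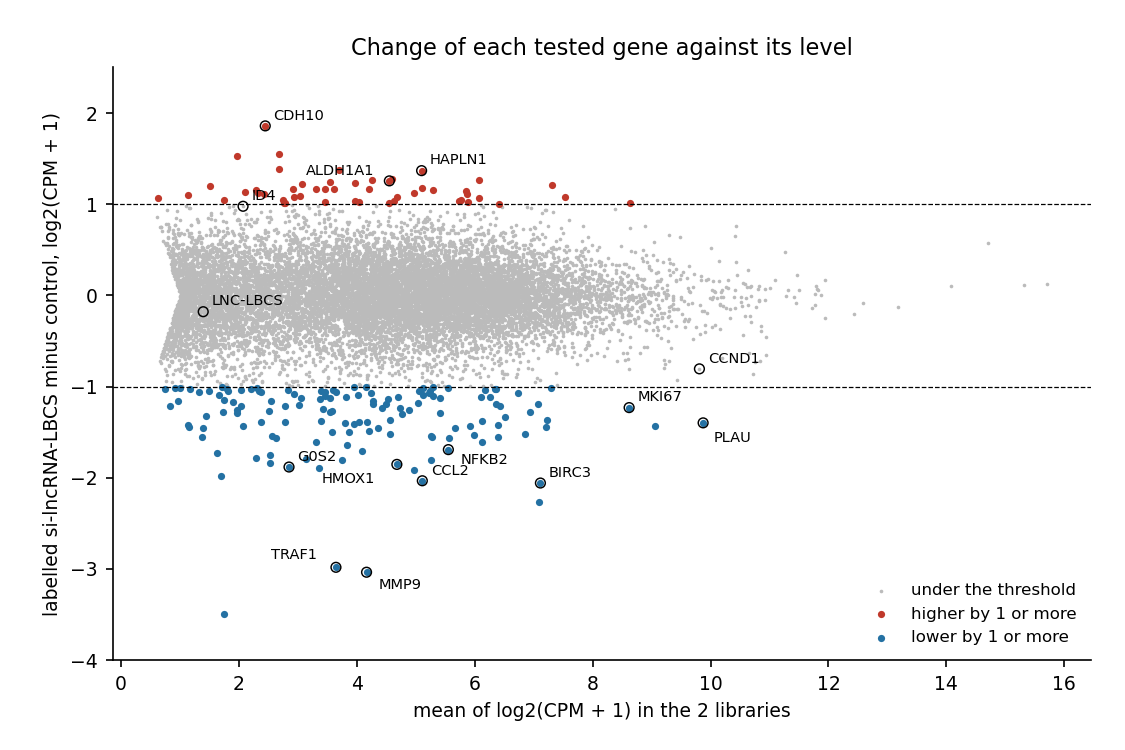
Change of each of 13492 tested genes (si-lncRNA-LBCS-labelled library minus control, log2(CPM + 1), y axis) against its mean log2(CPM + 1) in both libraries (x axis); dashed lines mark the threshold of 1 and circles mark named genes. The 136 lower genes reach -3.49 and the 51 higher genes reach 1.86, apart from HIST2H2AA3 at 6.42, which lies above the plotted range.

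The levels in the other 2 libraries place both sides of the comparison. Among the 136 lower genes, the si-lncRNA-LBCS-labelled library was the lowest of all 4 libraries for 95 (69.9%), and the control library was the highest for 79 (58.1%). Among the 51 higher genes, the si-lncRNA-LBCS-labelled library was the highest of 4 for 24 (47.1%), and the control library was the lowest for 42 (82.4%). Over all tested genes the 2 shares given for the higher genes were 17.1% and 23.8%. For the lower genes the matching background was 2566 of all 13492 tested genes with the si-lncRNA-LBCS-labelled library lowest. The control library was the highest for 3034 of the 13492. The choice of the lower and higher genes by the difference between the same 2 libraries raises all 4 of their shares, which are descriptions only. The 3 comparisons with the control share that library. The median of the 51 higher genes was 1.13 in this comparison, 0.97 for si-hnRNPK minus control and 1.05 for si-PTBP1 minus control. The median of the 136 lower genes was -1.26 here, -0.70 for si-hnRNPK and -0.54 for si-PTBP1, beside medians of -0.01, -0.12 and 0.11 over all tested genes. Against the geometric mean of the si-hnRNPK and si-PTBP1 libraries, a reference chosen after seeing the data, 19 of the 51 higher genes turned to lower, and 4 of the 51 stayed past the threshold. Of the 136 lower genes 125 stayed lower, 42 of them past the threshold, 5 turned to higher, and 6 were under 1 CPM both in the si-lncRNA-LBCS-labelled library and in the reference. For this reason the levels in all 4 libraries are given for the main genes. Where 2 levels are given, they are the control library and then the si-lncRNA-LBCS-labelled one.

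The list of inflammatory cytokine, chemokine and NF-κB pathway genes had the most members past the threshold. Whether NF-κB controls them in these cells was not tested. NF-κB is a family of dimeric transcription factors held in the cytoplasm by inhibitors, and it drives chemokines, survival factors and its own inhibitors. Of 23 listed cytokine, chemokine and NF-κB pathway genes in the tables, 16 were tested. Of these 8 were lower by 1 or more, where 1.01% of all tested genes were, and 0 were higher. The median change of the list was -0.92, against -0.01 over all tested genes. The si-lncRNA-LBCS-labelled library was the lowest of 4 for 12 of the 16, and for 2566 of all 13492 tested genes. All 8 members lower by 1 or more are among these 12, and by that choice they already lie below the control library. The list's median was -1.24 against the si-hnRNPK and si-PTBP1 libraries and -1.18 against all 3 other libraries, beside which its median for si-hnRNPK minus control was 1.08. For si-PTBP1 minus control it was -0.23.

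NFKB2, which encodes the p100 precursor of the p52 subunit, was at 83.3 CPM in control, 25.1 CPM in the si-lncRNA-LBCS-labelled library, 79.8 CPM in si-hnRNPK and 42.9 CPM in si-PTBP1. NFKBIA, the inhibitor IκBα and itself an NF-κB target, was at 243, 88.9, 495 and 146 CPM in the same order. The si-lncRNA-LBCS-labelled library was the lowest of the 4 for both genes. Their changes were -1.69 (-1.77 to -1.62) and -1.44 (-1.48 to -1.40). NFKB1, which encodes the p105 precursor of p50, changed by -0.21, RELB by -0.48 and TNFAIP3, the deubiquitinase A20, by -0.79, all under the threshold.

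BIRC3, a ubiquitin ligase of TNF receptor signalling, was at 282 CPM in control, 66.8 CPM in the si-lncRNA-LBCS-labelled library, 269 CPM in si-hnRNPK and 134 CPM in si-PTBP1. Its level was 23.7% of control (23.0 to 24.5%), a change of -2.06. TRAF1, an adaptor that binds BIRC3 and is in none of the lists, was among the largest falls, at 34.1 and 3.45 CPM. It was at 106 CPM in si-hnRNPK and 5.37 CPM in si-PTBP1, so the libraries split into a high pair and a low pair. Its change was -2.98 (-3.14 to -2.83). BCL2A1, a survival factor of the BCL2 family, was at 17.4, 6.65, 22.2 and 6.37 CPM, a change of -1.27.

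Among the secreted members, CCL2, which attracts monocytes, was at 68.9 CPM in control, 16.1 CPM in the si-lncRNA-LBCS-labelled library, 320 CPM in si-hnRNPK and 28.3 CPM in si-PTBP1. Its change was -2.03 (-2.12 to -1.94). CXCL8, which attracts neutrophils, was at 37.2, 16.6, 148 and 22.3 CPM, and CXCL3, a related chemokine, at 16.3, 7.39, 43.2 and 17.3 CPM. Their changes were -1.12 and -1.04. The order of the libraries was the same for CCL2 and CXCL8, with the si-lncRNA-LBCS-labelled library lowest and si-hnRNPK highest. CSF1, the growth factor of macrophages, was at 56.1 and 25.6 CPM, and LIF, a cytokine of the interleukin-6 family, at 53 and 24.8 CPM. The changes of CSF1 and LIF were -1.10 and -1.07. CXCL1 changed by -0.72, CXCL2 by -0.69 and IL11 by -0.17, under the threshold. IL18 at 0.75 and CCL20 at 0.73 were the 2 members of the list above 0. IL1A, IL1B, IL6 and TNF were below 1 CPM in both libraries.

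Other lower genes outside the lists, chosen after their values were seen, included genes related to the members of this list. TNFRSF9, a TNF receptor, was at 2.64 and 0.342 CPM, IL32 at 4.61 and 0.698 CPM, and NFKBIE, another NF-κB inhibitor, at 21.5 and 7.56 CPM. The 3 leukocyte and 6 endothelial markers listed in the tables were below 1 CPM in both libraries, and the 4 fibroblast markers tested had 0 past the threshold.

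**Figure D3:**
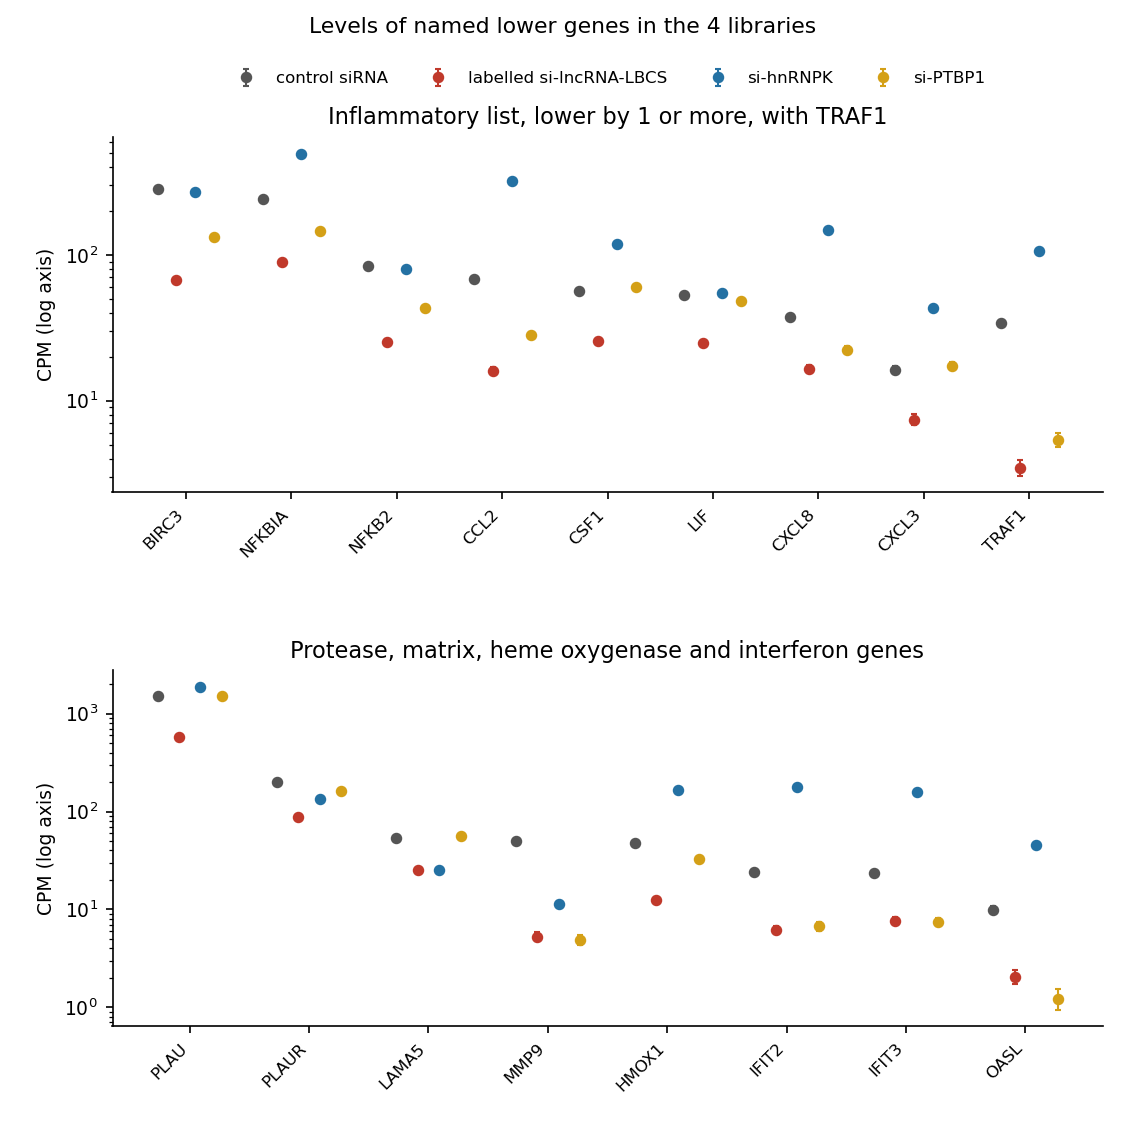
CPM (log axis) of named lower genes in the 4 libraries, with 1 point per library and 95% exact Poisson counting intervals, for the 8 inflammatory list members and TRAF1 (upper panel) and for protease, matrix, heme oxygenase and interferon genes (lower panel). The si-lncRNA-LBCS-labelled library is the lowest of 4 for each of the 8 inflammatory list members, while MMP9, OASL and IFIT3 are lowest in si-PTBP1 and LAMA5 in si-hnRNPK.

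Promoters of the lower genes were searched for the κB consensus, the motif bound by NF-κB, and for the AP-1 motif TGANTCA on both strands. The window ran from 250 bases before to 50 bases after the start site in RefSeq on GRCh38.p14, and it was found for 88 of the 136 lower genes, 35 of the 51 higher genes and 9998 of the tested genes. The κB consensus was present in 17 of the 88 lower genes (19.3%), 6 of the 35 higher genes (17.1%), 12.8% of the tested genes and 10.8% of all 27305 promoters. The AP-1 motif was present in 7 of the 88 lower genes, 2 of the 35 higher genes, 4.62% of the tested genes and 7.76% of all promoters. Overlap between the motifs was not counted. A match is a description of the letters and not a bound site. Of the lower inflammatory members 5 had a promoter in the table, and 3 of those held the consensus, BIRC3, NFKBIA and CXCL3. The promoters of NFKB2 and CXCL8 held 0 matches to it. The BIRC3 and NFKBIA windows are shown because both genes are feedback or survival targets of the pathway described above, with each match in capitals.
BIRC3, chr11:102317234-102317533, plus strand: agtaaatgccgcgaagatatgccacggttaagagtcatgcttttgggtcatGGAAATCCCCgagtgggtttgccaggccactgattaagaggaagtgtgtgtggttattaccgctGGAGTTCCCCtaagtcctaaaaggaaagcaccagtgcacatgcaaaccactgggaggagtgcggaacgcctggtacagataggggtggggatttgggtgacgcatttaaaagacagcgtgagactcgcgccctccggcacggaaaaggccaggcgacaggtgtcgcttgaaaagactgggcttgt
NFKBIA, chr14:35404700-35404999, minus strand: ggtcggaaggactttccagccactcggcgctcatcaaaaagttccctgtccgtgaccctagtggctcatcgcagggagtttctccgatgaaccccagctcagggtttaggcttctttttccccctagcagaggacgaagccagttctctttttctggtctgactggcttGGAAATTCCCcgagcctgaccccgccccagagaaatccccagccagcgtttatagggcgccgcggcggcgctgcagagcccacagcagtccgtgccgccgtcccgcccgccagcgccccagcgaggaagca
The 2 BIRC3 matches began 199 and 135 bases before the start site, and the NFKBIA match 81 bases before it.

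Urokinase, its receptor and MMP9 were lower as well. Urokinase, bound to its receptor, turns plasminogen into plasmin at the cell surface, and gelatinase MMP9 cuts collagen of the basement membrane. Of 29 tested matrix and protease genes 5 were lower by 1 or more, or 17.2% against 1.01% of all tested genes, and 0 were higher. The median of the list was -0.11, and 13 of the 29 lay above 0. PLAU, which encodes urokinase, was at 1523 CPM in control, 577 CPM in the si-lncRNA-LBCS-labelled library, 1883 CPM in si-hnRNPK and 1531 CPM in si-PTBP1. PLAUR, its receptor, was at 202, 88, 136 and 162 CPM. For both genes the si-lncRNA-LBCS-labelled library was the lowest. The changes were -1.40 (-1.42 to -1.38) and -1.19 (-1.23 to -1.15).

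MMP9 went from 3089 reads to 369, a change of -3.04 (-3.17 to -2.90), next to the -2.98 of TRAF1. As a share of control MMP9 was at 10.4% and TRAF1 at 10.1%, so the order of the 2 genes depends on the scale. It was at 50.3 CPM in control, 5.25 CPM in the si-lncRNA-LBCS-labelled library, 11.3 CPM in si-hnRNPK and 4.89 CPM in si-PTBP1. The control library stood alone at the high end, and against the other 2 knockdown libraries the difference was -0.45. LAMA5, a laminin chain of basement membranes, was at 53.1, 25.3, 25 and 56.6 CPM. Members under the threshold ran from LAMB3 at -0.87, MMP1 at -0.84, MMP2 at -0.73 and MMP14 at -0.73 to COL4A1 at 0.83 and LAMA3 at 0.88.

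G0S2, an inhibitor of the triglyceride lipase PNPLA2 that was first found in cells leaving the resting state, had 787 control reads and 193 in the si-lncRNA-LBCS-labelled library. Its levels were 12.8 and 2.75 CPM, with 36.2 CPM in si-hnRNPK and 4.49 CPM in si-PTBP1. The change was -1.88 (-2.06 to -1.70), with a level at 21.4% of control. Its order over the 4 libraries was that of CCL2 and CXCL8. Of the 14 tested lipid droplet and lipolysis genes, PPARA, a nuclear receptor of fatty acid oxidation, was the other lower one at 10.1 and 4.23 CPM, and 0 were higher. PNPLA2 itself changed by -0.20 and ABHD5, its activator, by -0.78.

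MKI67, the proliferation marker Ki-67, was at 601 CPM in control, 256 CPM in the si-lncRNA-LBCS-labelled library, 95.2 CPM in si-hnRNPK and 326 CPM in si-PTBP1. The control library was the highest, and the si-lncRNA-LBCS-labelled library lay between the other 2 knockdowns. Its change of -1.23 (-1.26 to -1.21) therefore became 0.53 against the si-hnRNPK and si-PTBP1 libraries. CCND1, cyclin D1, which drives entry into the cell cycle with CDK4 and CDK6, was at 1187, 678, 295 and 991 CPM. Its change was -0.81 (-0.82 to -0.79), under the threshold, and 0.33 against the other 2 knockdowns.

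The remaining proliferation genes did not share the size of the MKI67 difference. Of 52 tested G2/M phase genes MKI67 was the 1 lower gene, and 0 were higher, with a median of -0.06. Of 41 tested S phase genes 0 passed the threshold, with a median of -0.10 and 30 of 41 below 0, against 51.8% of all tested genes. Of 18 tested G1 cyclins, kinases and inhibitors 0 passed, with a median of -0.02. In si-hnRNPK minus control, which shares the control library, the S phase median was -0.83 and the G2/M median -1.11.

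Single stress genes and a few interferon genes passed the threshold. HMOX1, heme oxygenase 1, was at 47.7 CPM in control, 12.5 CPM in the si-lncRNA-LBCS-labelled library, 168 CPM in si-hnRNPK and 33.1 CPM in si-PTBP1, a change of -1.85. It was the 1 of 23 tested NRF2 and antioxidant genes past the threshold, and the median of that list was 0.15. Of 43 tested interferon-stimulated genes 3 were lower, or 6.98% against 1.01% of all tested genes, and 1 was higher, with a median of -0.08. The median was -1.27 against the other 2 knockdowns, where si-hnRNPK minus control had a median of 2.04. IFIT2, an RNA-binding antiviral protein, was at 24.0, 6.15, 178 and 6.71 CPM, and IFIT3, its partner, at 23.4, 7.65, 158 and 7.42 CPM. For both, the si-lncRNA-LBCS-labelled library stood beside si-PTBP1 and below the control library. OASL, a relative of the oligoadenylate synthetases, was at 9.89, 2.05, 45.7 and 1.21 CPM. IFI6, a mitochondrial protein, went the other way at 11.2 and 26.5 CPM. It was at 266 CPM in si-hnRNPK and 15.4 CPM in si-PTBP1, so its 1.17 above control became -1.27 against those 2 libraries. Of 9 tested sensors of double-stranded RNA 0 passed the threshold, with a median of -0.26.

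FOSL1, an AP-1 subunit, was at 64.2 CPM in control, 21.3 CPM in the si-lncRNA-LBCS-labelled library, 18.7 CPM in si-hnRNPK and 34.6 CPM in si-PTBP1. It was the 1 lower gene of 30 tested AP-1 and immediate early genes, of which 0 were higher. Its change of -1.55 became -0.25 against the other 2 knockdowns. GADD45A, a p53 target of growth arrest, was at 48.5, 20.8, 90.4 and 31.4 CPM and was the 1 of 26 p53 targets past the threshold. Further large falls were CD82, a tetraspanin, at 59.5 and 15.1 CPM, PROCR, the endothelial protein C receptor, at 70.5 and 19.4 CPM, UNC13A, a synaptic vesicle priming protein, at 18.8 and 4.34 CPM, and SBSN, suprabasin, at 5.41 and 0.626 CPM. Against the other 2 knockdowns CD82 was at -0.69, PROCR at -1.38, UNC13A at -0.64 and SBSN at -0.81, and UNC13A was lower still in si-hnRNPK, at 3.02 CPM. COL17A1, a hemidesmosome collagen and 1 of 6 tested basal urothelial genes, was at 44.9 and 18.2 CPM but higher than in the other 2 knockdowns by 0.32. CLDN1, a tight junction protein, was the 1 lower gene of 16 tested epithelial-mesenchymal transition genes, at 4.09 and 1.45 CPM.

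Higher genes were fewer, and apart from HIST2H2AA3 their changes reached 1.86. CDH10, a neural cadherin, had 114 control reads and 658 in the si-lncRNA-LBCS-labelled library, or 1.86 and 9.37 CPM, with 8.54 CPM in si-hnRNPK and 44.4 CPM in si-PTBP1. The control library was the lowest, and the change of 1.86 (1.66 to 2.06) became -1.01 against the other 2 knockdowns. HAPLN1, which links hyaluronan to proteoglycans, was at 20.3, 54.0, 46.9 and 83.3 CPM, and PCDH10, a protocadherin, at 11.3, 28.6, 23.0 and 64.6 CPM. ALDH1A1, a retinaldehyde dehydrogenase used as a stem cell marker, was at 14.2, 35.2, 41.0 and 34.2 CPM, and MEX3D, an RNA-binding protein, at 14.6, 36.6, 35.2 and 39.3 CPM. In these 4 genes all 3 knockdown libraries lay above the control library, and the changes of 1.37, 1.27, 1.26 and 1.27 turned to values between -0.42 and -0.02 against the other 2 knockdowns.

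Some higher genes kept their direction against both references. CA9, a carbonic anhydrase induced by hypoxia, was at 4.5 CPM in control, 11.8 CPM in the si-lncRNA-LBCS-labelled library, 9.43 CPM in si-hnRNPK and 2.05 CPM in si-PTBP1. Its difference was 1.22 against the control library, 1.2 against the 3 others and 1.19 against the other 2 knockdowns. It was 1 of 27 tested hypoxia and angiogenesis genes, whose median was 0.005, and it was the 1 higher gene of that list. ALDH3B1, an aldehyde dehydrogenase, was at 42.2, 103, 36.5 and 91.6 CPM. For it the si-lncRNA-LBCS-labelled library and si-PTBP1 formed the high pair.

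Among the genes related to ID4, 3 of 19 tested ID and TGF-β feedback genes were higher, or 15.8% against 0.378% of all tested genes. NOG, the BMP antagonist noggin, was at 6.57 and 16.9 CPM. TGFBR1, the type I TGF-β receptor, was at 25.3 and 57.5 CPM, and ID2, a relative of ID4, at 16.2 and 34.2 CPM. Their changes were 1.24, 1.16 and 1.03, and 0.35, 0.14 and 0.20 against the other 2 knockdowns. ID1 at 0.54 and ID3 at 0.37 lay above 0 and under the threshold. The median of the list was 0.10.

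Several lists had few or no members past the threshold. PRC2, the complex that methylates histone H3 at lysine 27, and its partners had 0 of 12 tested genes past the threshold and a median of 0.03, with EZH2, its methyltransferase, at -0.27. Of 10 tested stemness genes ALDH1A1 was the 1 higher, with MYC at -0.58, CD44 at -0.70 and BMI1 at 0.21. Of 36 tested hnRNP and SR splicing regulators 0 passed the threshold, and of 80 tested ribosomal protein genes 1 did, RPS16, at 107 and 36.5 CPM. RBMS3, an RNA-binding protein, was the 1 higher gene of 24 tested YAP and TEAD targets, at 2.26, 6.26, 16.0 and 9.27 CPM. Cholesterol synthesis and uptake, glycolysis, fatty acid synthesis, unfolded protein response and nucleotide excision repair genes had 0 past the threshold, of 24, 23, 11, 34 and 24 tested.

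**Figure D4:**
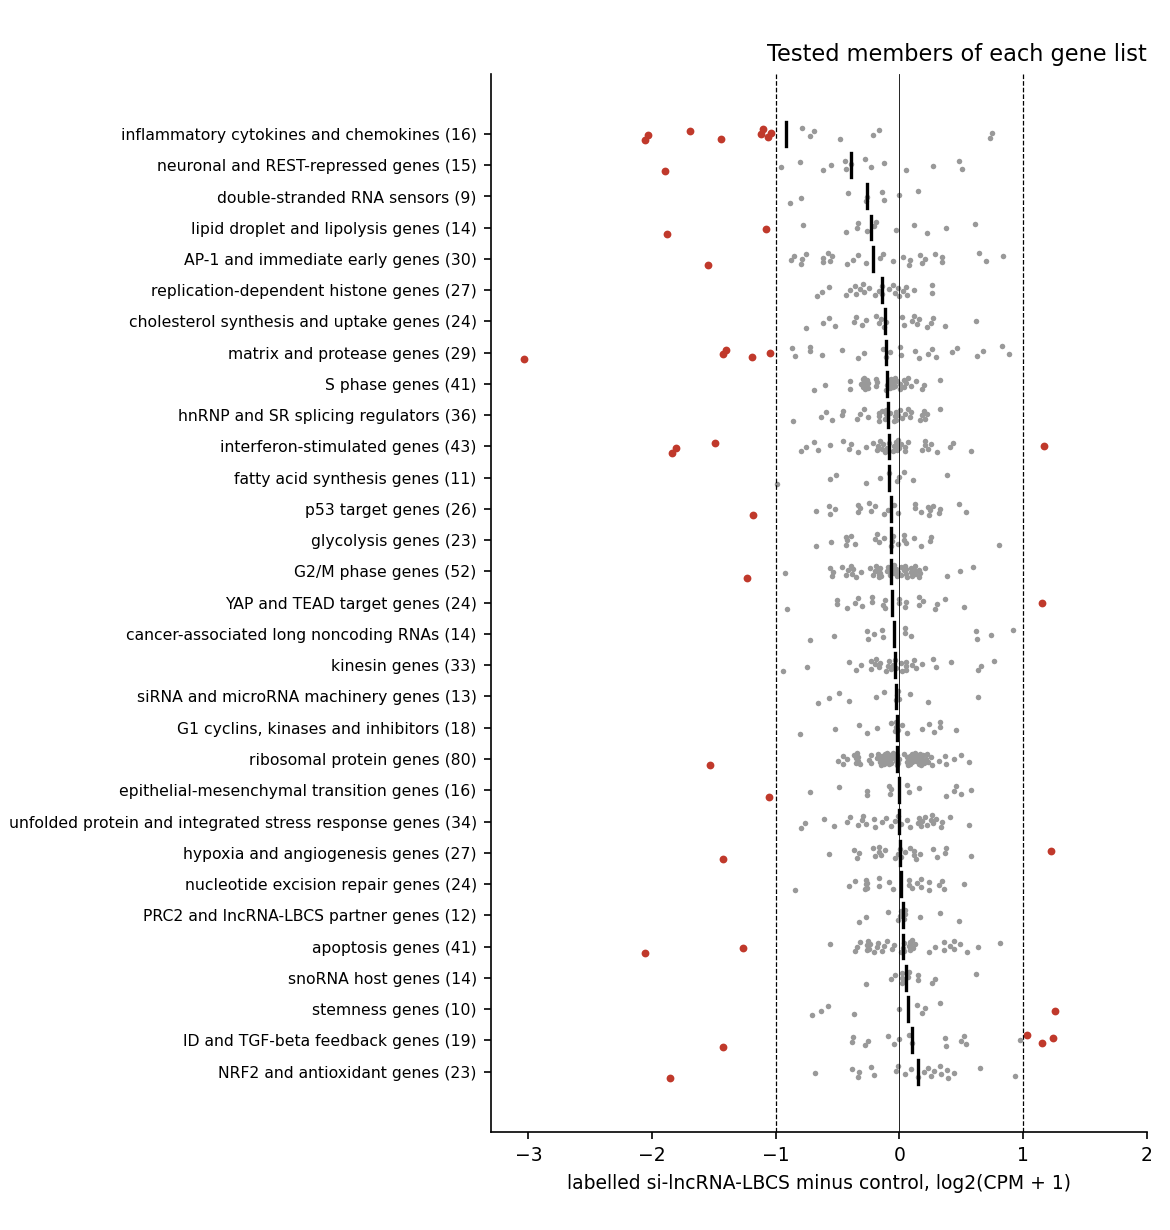
Change of each tested member (si-lncRNA-LBCS-labelled library minus control, log2(CPM + 1)) of the gene lists with 9 or more tested members, with the number tested after each name; black bars are medians, dashed lines the threshold of 1, and red points the members past it. The inflammatory list has the lowest median, -0.92, and the other medians lie between -0.39 and 0.15; HIST2H2AA3 at 6.42 lies outside the plotted range.

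Some large values are uncertain, since near-identical copies of a gene can share reads and retired identifiers carry no symbol. HIST2H2AA3, a histone H2A gene, had 4 control reads and 6333 in the si-lncRNA-LBCS-labelled library, with 2 in si-hnRNPK and 5 in si-PTBP1. Of the 27 tested replication-dependent histone genes it was the 1 past the threshold, and the median of the list was -0.14. MTRNR2L8, a nuclear copy of mitochondrial ribosomal RNA, was at 299, 61.4, 129 and 364 CPM. ENSG00000184779, which has no symbol in the tables used, had 630 control reads, 0 in the si-lncRNA-LBCS-labelled library, 3 in si-hnRNPK and 0 in si-PTBP1. The floor of 3 reads in the si-lncRNA-LBCS-labelled library is 0.0427 CPM, against 10.3 CPM in control. RPS16 is a multicopy family member too, with processed copies elsewhere in the genome.

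Seed matches were counted in the longest annotated 3′ UTR of 11586 tested genes, whose median change was -0.01. For siRNA-1, the 10405 genes without a match to its guide seed (GTCTGAT in the message) had a median change of -0.003, the 1040 genes with 1 match -0.07, and the 141 genes with 2 or more matches -0.18. In the si-hnRNPK library the same 3 classes were at -0.11, -0.12 and -0.11 against control, and in si-PTBP1 at 0.11, 0.14 and 0.21. The order of the 3 medians from high to low with more matches was present in the comparison of the library given this siRNA and in neither of the others, all of which share the control library. For siRNA-2 (ACACAAA) the medians were -0.005, -0.04 and -0.06 over 9357, 1696 and 533 genes. The same classes were at -0.11, -0.13 and -0.17 in si-hnRNPK, which did not receive it, so this order was not particular to the si-lncRNA-LBCS-labelled library. For the control siRNA (TGTCACG) they were -0.01, -0.003 and 0.11 over 11164, 404 and 18 genes.

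A match came with a longer 3′ UTR, at a median of 3427 bases with and 1537 bases without a siRNA-1 match. Within UTRs of 1000 to under 3000 bases, a window chosen after seeing the data, the medians were -0.09 with and -0.0017 without a siRNA-1 match, and -0.06 with and -0.0024 without a siRNA-2 match. Of genes with a siRNA-1 match, 61.4% lay below control against 51.7% of all genes with a 3′ UTR, and 18 genes, or 1.52%, were lower by 1 or more against 0.967%. Of genes with a siRNA-2 match, 55.6% lay below control, and 0.942% were lower by 1 or more. The medians describe many genes together and the threshold of 1 is for single genes, so the sizes of the 2 are not comparable. Of the lower genes described above, PLAU, LIF, PROCR and COL17A1 had 1 siRNA-1 match, HMOX1 had 1 match to each siRNA, PPARA 1 and 2, UNC13A 2 to siRNA-2, OASL 1 to siRNA-2, and BIRC3, TRAF1, CCL2, MMP9, NFKB2, NFKBIA and G0S2 had 0 to either. CCND1 had 3 siRNA-2 matches. The part of the seeds in single genes was not tested.

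**Figure D5:**
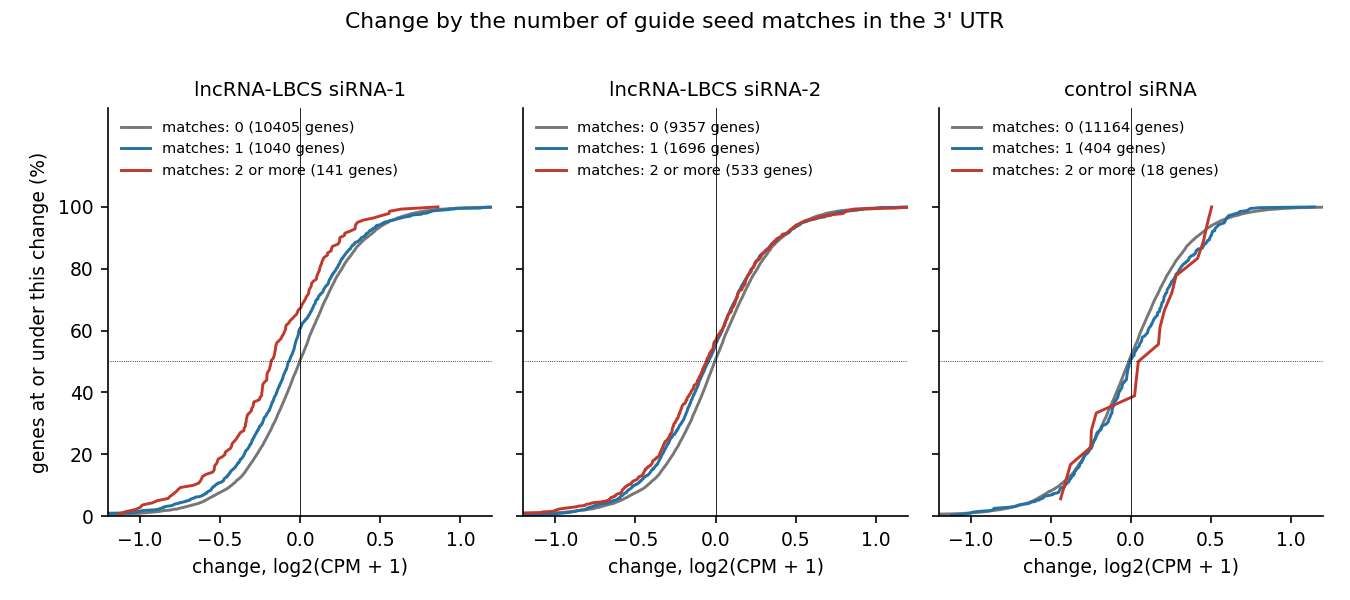
Share of genes (%) at or under each change (si-lncRNA-LBCS-labelled library minus control, log2(CPM + 1)), for genes with 0, 1 and 2 or more matches to the guide seed of each siRNA in their 3′ UTR. For siRNA-1 the curve of the 141 genes with 2 or more matches lies left of the others, with a median of -0.18, while the control siRNA has 18 genes in that class.

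Sequence composition also differed. The 127 lower genes with an annotated transcript had a median GC content of 52.8%, the 49 higher genes 45.6%, and all tested genes 47.7%. Over 5 equal classes of GC content the median change ran between -0.07 and 0.03. Its part in the called genes was not tested.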

How the data were processed

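RNA-seq of UM-UC-3 cells was deposited as 1 table per library. The authors gave CPM per Ensembl gene, and dividing a table by its smallest step gave whole reads for 100% of values, within 0.001 of a read. Per the labels the build was hg19. The aligner, counter, annotation and strand setting are not given in the sources used here. Genes without reads carry a placeholder and were set to 0. Reads on listed genes ran from 54301152 to 70232674. Genes at 1 CPM or more in either library were tested. Both tables listed 24507 genes. The 1212 genes listed only for the control had at most 5 reads, and the 1197 listed only for the library labelled si-lncRNA-LBCS at most 25.

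Changes are differences in log2(CPM + 1). Symbols were found for 13112 of 13492 tested genes. Transcripts of GENCODE release 29 (GRCh38) gave the siRNA sites, positions and 3′ UTRs, and RefSeq (GRCh38.p14) the promoters. No coordinates of the authors were used. With 1 library a side no test of the conditions was run, and a binomial q compares the 2 libraries only. The functions were tested on simulated data.

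Named genes are the target, its neighbours within 1 Mb, G0S2, CCND1, MKI67, HNRNPK, PTBP1 and GAPDH, the 12 largest rises and 12 largest falls with a symbol and at least 5 CPM in the higher of both libraries, and list members past the threshold or among the 3 largest of a list. Some genes of the rule are not reported here. Other genes named were chosen after their values were seen. The members and the gene lists were chosen with earlier results of these data known. Alternatives were a pseudocount of 0.1, no filter, 5 CPM, 1.5-fold, median-of-ratios scaling, other reference libraries and a binomial q of 0.05. Intervals used scipy 1.17.1 and adjusted values statsmodels 0.14.6; tables used pandas 2.3.3 with numpy 2.4.6 (Python 3.11.15), and figures matplotlib 3.10.9.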

Additional observations from a re-analysis of the deposited data

How the results depend on the processing

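With 1 library per condition, the spread between cultures is unknown, and no left-out replicate could be tried. No paired analysis was possible because each condition has 1 library. With a pseudocount of 0.1 the counts were 165 higher and 353 lower genes, with 1.5-fold 559 and 774, and against the geometric mean of 3 other libraries 7 higher and 104 lower. No filter, 5 CPM, median-of-ratios scaling (a shift of -0.009) and the binomial q of 0.05 left both counts within 1.5 times. LNC-LBCS was at -0.66 against the 3 others and -0.90 against the si-hnRNPK and si-PTBP1 libraries, where the target itself was higher than in the control library. Among named genes past the threshold, the direction against those 2 libraries turned for COL17A1 (0.32), MKI67 (0.53), RBMS3 (-0.86), IFI6 (-1.27), ALDH1A1 (-0.088), PCDH10 (-0.42), MEX3D (-0.022), HAPLN1 (-0.21) and CDH10 (-1.01). Under the threshold it also turned for CCND1 (0.33) and MBOAT1 (0.18), among others. Against the 3 others it turned for RBMS3 (-0.19), IFI6 (-0.46) and CDH10 (-0.050). The reference of the si-hnRNPK and si-PTBP1 libraries, like the 3′ UTR window, was chosen after seeing the data. The median of the inflammatory list ran from -0.49 without a filter, which adds genes near 0 CPM, to -1.24. Genes under 1 CPM in both libraries were not called.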
